A study of Danio rerio with 15 samples.

Results

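The developmental and nephron transcription factor genes were taken by symbol from a table of 5686 genes measured in zebrafish kidney tissue, and 60 genes had a symbol of the LHX, PAX, WT1, OSR, EYA, SALL, HNF, IRX, HOX, MEIS, SOX, FOX, TBX, ID and related families. Of these, 58 encode transcription factors, their coactivators or inhibitors. The other 2, foxred1 and foxred2, matched the FOX pattern but encode oxidoreductases. They are described apart, and the counts of the 60 members include them. Symbols alone set which genes of the table entered, and the families were chosen with earlier results of these data known. The kidneys came from 6-month-old fish of the AB strain, with 3 samples each of uninjured fish and of fish at 1, 3, 5 and 7 days post injury (dpi). Injury was acute kidney injury (AKI) from an intraperitoneal injection of gentamicin, an aminoglycoside that damages tubule cells, and only injected fish with protein in the urine were kept. The tissue was kidney, which in fish also holds blood-forming cells, and neither the labels nor the methods say how many kidneys made a sample. The p-values therefore measure the spread between these samples. How the 5686 genes were chosen is not given in the sources used here, and symbols of the same families outside the table were not analysed here. Whether the choice favoured genes that changed in these samples is therefore not known. Shares and medians of all genes, and the adjusted p-values, refer to these listed genes and not to the whole genome.

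The zebrafish kidney adds new nephrons throughout life and after injury. They arise from renal progenitor cells (RPCs), which express the LIM homeobox gene lhx1a, and connect to tubules already present. LIM, PAX, WT1, OSR, EYA and SALL proteins act in the progenitors, HNF4 and IRX proteins in the tubule segments, HOX and MEIS proteins in axial patterning, and ID proteins block basic helix-loop-helix factors by binding their partners. The comparisons asked which of these genes changed in the days after AKI and which followed lhx1a.

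The values are FPKM (fragments per kilobase of transcript, scaled to library size), and 13876000 to 16368000 reads per sample were recovered behind them. Members ranged in mean over the 15 samples between 0.106 FPKM for rargb, a retinoic acid receptor, and 111.4 FPKM for id3. The mean was below 1 FPKM for 24 members, between 1 and 10 FPKM for 29 and at least 10 FPKM for 7 (id3, irx3b, irx1a, sox9a, foxp1a, tfcp2l1 and esrra). All 60 passed the filter of more than 0 FPKM in at least 3 of the 15 samples, and 8 were at 0 in some sample. Of the fixed marker lists, all 10 proximal tubule genes were in the table, against 0 of the distal tubule, podocyte and endothelial markers. Summed proximal tubule markers lay between 1217 and 2148 FPKM in uninjured kidneys, 915.5 and 1125 FPKM at 1 dpi, 492.8 and 833.6 FPKM at 3 dpi, 254.8 and 936.2 FPKM at 5 dpi, and 390.5 and 453.8 FPKM at 7 dpi. Ovary markers, of which 11 of 21 were listed, set libraries apart. Their mean log2(FPKM + 1) was 5.28, 0.62 and 5.77 in uninjured kidneys, 1.40, 4.12 and 0.72 at 1 dpi, 0.52, 1.08 and 0.57 at 3 dpi, 4.74, 0.67 and 0.72 at 5 dpi and 2.93, 2.55 and 3.34 at 7 dpi.  The libraries above 4 were uninjured replicates 1 and 3, 1 dpi replicate 2 and 5 dpi replicate 1.

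Differences were tested with limma on log2(FPKM + 1) over 5685 genes, and a gene was called at a Benjamini-Hochberg adjusted p below 0.05. Among the 5 groups, 43 of the 60 members differed, against 64.5% of all genes tested. At 1 dpi 12 members were higher and 2 lower than in uninjured kidneys, with 19.8% of all genes called (12.9% higher and 6.9% lower). At 3 dpi 1 was higher and 3 lower, with 13.3% of all genes called (6.4% higher and 6.91% lower). At 5 dpi 5 were higher and 1 lower, with 8.16% of all genes called, 6.7% higher and 1.46% lower. At 7 dpi 7 were higher and 8 lower, with 17.2% of all genes called, 4.78% higher and 12.4% lower. Groups did not overlap, without regard to the test, for 20 members that were higher and 7 that were lower at 1 dpi (24.6% and 20.1% of all genes), 9 and 13 at 3 dpi (18.5% and 24.7%), 15 and 9 at 5 dpi (21.5% and 16.3%) and 17 and 13 at 7 dpi (15.1% and 27.4%). Between the later and earlier injured groups, 5 and 7 dpi against 1 and 3 dpi, 13 were higher and 15 lower, against 35.7% of all genes (15.5% higher and 20.2% lower). These counts include foxred1 and foxred2. Of the 58 other members, 41 differed among the 5 groups. At 1, 3, 5 and 7 dpi 11, 1, 5 and 7 of the 58 were higher and 1, 2, 0 and 7 lower. Between later and earlier groups 13 of the 58 were higher and 14 lower. The median log2 difference of the members was 0.03, -0.16, 0.02 and -0.13 at 1, 3, 5 and 7 dpi, beside -0.09, -0.13, -0.09 and -0.22 over all genes tested. Between later and earlier groups it was 0.03, beside 0.01 over all genes. In all, 36 members were called in at least 1 of these 5 comparisons and 24 in none. The matching share of all genes is not given here, so this count describes the members alone. The 4 comparisons with uninjured kidneys share the same 3 uninjured samples. The median over all genes depended on the scaling at 3 dpi, where it was -0.05 with median-of-ratios scaling and 0.08 with quantile normalization. At 7 dpi these medians were -0.11 and -0.06. The split of the calls followed: 2 members higher and 3 lower, and 6 higher and 1 lower, at 3 dpi, and 7 higher and 5 lower, and 7 higher and 3 lower, at 7 dpi. Of all genes 15.3% and 15.9% were called under these scalings at 3 dpi, and 12.7% and 10.1% at 7 dpi.

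Calls against uninjured kidneys depended on single libraries. At 1 dpi 8 calls (sox9a, id3, foxo1a, hoxc6a, hoxc3a, foxred2, hnf4a and foxred1) held in all 6 fits that each left out 1 sample. The other 6 (id1, sall1b, pax6b, foxi2, irx7 and tbx16) were lost in at least 3, with uninjured replicates 1 and 3 among the samples left out each time, and without either of these 8 members were called. At 3 dpi the count was 18 without uninjured replicate 2, 0 without uninjured replicate 1 or 3 dpi replicate 2, and 1, foxred1, without uninjured replicate 3 or 3 dpi replicate 1 or 3. At 5 dpi it was 2, wt1b and foxp3a, without uninjured replicate 3 or 5 dpi replicate 1, and 0 without any other sample. At 7 dpi it was 26 without uninjured replicate 2, 4 without uninjured replicate 1, 6 without uninjured replicate 3 and 0 without any 7 dpi replicate. Between later and earlier groups it stayed between 22 and 29, and 22 of the 28 calls held in all 12 fits. The other 6, among them id1, foxp3b, meis2b and wt1a, were lost in 5 to 9 of them. The share of all genes called moved with these counts. At 1 dpi it was 9.48% to 22.6% over the fits that left out 1 sample. At 3 dpi it was 29.5% without uninjured replicate 2 and between 0.88% and 6.35% without any other sample, and at 7 dpi 33.7% without uninjured replicate 2 and at most 8.02% otherwise. At 5 dpi it was at most 3.32%, and between later and earlier groups 27.7% to 34.2%.

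**Figure D1:**
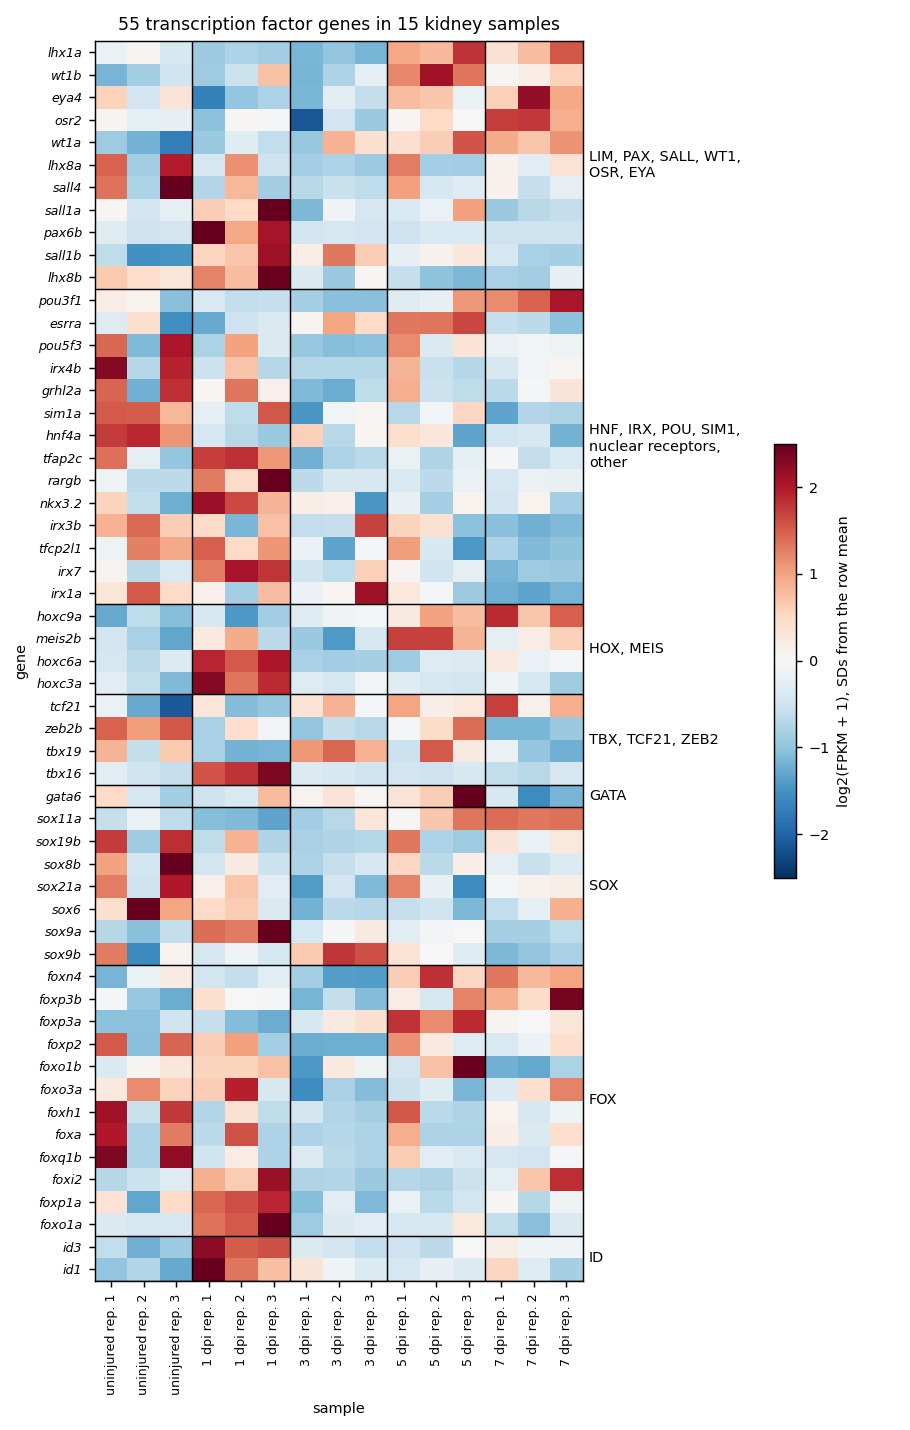
Rows are 55 of the 58 transcription factor genes by family, ordered within a family by their correlation with lhx1a, and columns are the 15 samples by group. Colour is log2(FPKM + 1) in SDs from the gene's own mean, with red above and blue below it and the scale capped at its ends, so that a set of genes is red at 1 dpi (such as sox9a, id3, hoxc6a) and another at 5 and 7 dpi (such as lhx1a, sox11a, foxn4).

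The LIM homeobox gene lhx1a (ENSDARG00000014018, GRCz11 chromosome 15, 27770533 to 27777699, minus strand), which is needed for nephron formation and marks RPC aggregates in zebrafish, was low at 1 and 3 dpi and high at 5 and 7 dpi. It was 1.34, 1.67 and 1.06 FPKM in uninjured kidneys, 0.542, 0.66 and 0.562 at 1 dpi, 0.35, 0.47 and 0.329 at 3 dpi, 3.42, 3.08 and 6.17 at 5 dpi and 2.19, 2.98 and 5.2 at 7 dpi, from 12 to 232 reads per sample. Every value at 5 and 7 dpi lay above every uninjured value, and every value at 1 and 3 dpi lay below them. Mean FPKM was 7.91 times as high at 5 and 7 dpi as at 1 and 3 dpi (log2 difference 1.65, SE 0.19, adjusted p = 0.00013). This call held in all 12 fits that left out 1 sample and under all 11 alternative settings. The contrast was chosen with lhx1a as its reference and with earlier results of these data known. For lhx1a its p-value therefore describes these data and is no independent test. Of the comparisons with uninjured kidneys, the fall at 3 dpi passed the threshold (log2 difference -0.76, SE 0.16, adjusted p = 0.0298), and it was kept only without uninjured replicate 2 among the 6 fits that left out 1 sample (adjusted p up to 0.102). At 1 dpi the log2 difference was -0.56 (adjusted p = 0.0556), at 5 dpi 1.11 (adjusted p = 0.0646) and at 7 dpi 0.87 (adjusted p = 0.0848). In limma fits on all 15 samples, with and without the ovary marker mean as a covariate, the rises at 5 and 7 dpi were called. The lowest adjusted p there was 0.0125 at 5 dpi and 0.0275 at 7 dpi. With the covariate the fall at 3 dpi was not called. By group mean the order was 5 dpi (4.22 ± 1.7 FPKM), 7 dpi (3.46 ± 1.56), uninjured (1.36 ± 0.305), 1 dpi (0.588 ± 0.0633) and 3 dpi (0.383 ± 0.0759, SD, n = 3 each), and the samples of 5 and 7 dpi overlapped. In bulk kidney tissue, fewer cells of a type and less RNA per cell cannot be told apart.

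The 2 zebrafish WT1 genes, which encode zinc finger proteins of nephron progenitors and podocytes, were higher at 5 and 7 dpi than in uninjured kidneys. wt1b was 1.27, 1.71 and 2.4 FPKM in uninjured kidneys, 1.68, 2.33 and 6.07 at 1 dpi, 1.27, 1.87 and 3.01 at 3 dpi, 8.44, 15.2 and 9.22 at 5 dpi and 3.63, 4.04 and 5.44 at 7 dpi. All 3 samples at 5 dpi were above those of every other group. The rise was called at 5 dpi (log2 difference 2.07, SE 0.29, adjusted p = 0.0224), at 7 dpi (log2 difference 0.95, SE 0.24, adjusted p = 0.0459) and between later and earlier groups (log2 difference 1.19, SE 0.26, adjusted p = 0.00666). The last of these calls held in 12 of 12 fits that left out 1 sample, and those at 5 and 7 dpi in 2 and 1 of 6. wt1a was 6.65, 5.97 and 4.84 FPKM in uninjured kidneys, 6.55, 8.25 and 7.35 at 1 dpi, 6.54, 12.5 and 10.6 at 3 dpi, 10.7, 11.5 and 15.9 at 5 dpi and 12.8, 11.7 and 13.7 at 7 dpi. No sample at 5 or 7 dpi fell within the uninjured range, while those at 3 dpi overlapped both. wt1a rose at 5 dpi (log2 difference 0.99, SE 0.22, adjusted p = 0.0499) and 7 dpi (log2 difference 1.02, SE 0.18, adjusted p = 0.0236), and by 0.53 on the log2 scale between later and earlier groups (adjusted p = 0.0298). That last call was lost in 5 of the 12 fits, without 1 dpi replicate 1, 3 dpi replicate 1, 5 dpi replicate 3 or 7 dpi replicate 1 or 3 (adjusted p up to 0.0655). The calls of wt1a at 5 and 7 dpi held in 0 and 2 of the 6 fits that left out 1 sample. wt1b overlaps kifc3 on the other strand and the kit does not mark strand, so reads of the overlap cannot be told apart. kifc3 lay between 3.19 and 5.53 FPKM at 5 dpi, against 4.63 to 7.58 FPKM in uninjured kidneys. Interstitial markers moved with wt1a over the 15 samples (r = 0.869 with their mean, values of the same libraries). This was not particular to wt1a. Over other members r with this mean varied widely, as in tcf21 (0.834), foxp3a (0.783), lhx1a (0.664) and tfcp2l1 (-0.66). Of 7 markers 6 were listed, none at 0 in all samples, and their sum was 65.4 to 195.4 FPKM in uninjured kidneys. It was between 84.0 and 93.0 FPKM at 1 dpi, 111.9 and 151.9 FPKM at 3 dpi, 148.6 and 248.2 FPKM at 5 dpi, and 142.1 and 244.1 FPKM at 7 dpi. Their part in the rise of wt1a was not tested.

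Among the other progenitor families, osr2, an odd-skipped zinc finger gene, was highest at 7 dpi. It was 9.54, 8.46 and 8.57 FPKM in uninjured kidneys, 6.22, 9.41 and 9.17 at 1 dpi, 3.94, 7.73 and 6.45 at 3 dpi, 9.41, 11.2 and 9.27 at 5 dpi and 17.6, 17.9 and 13 at 7 dpi. The 7 dpi samples lay above all others, and osr2 rose against uninjured kidneys (log2 difference 0.79, SE 0.18, adjusted p = 0.0382) and between later and earlier groups (log2 difference 0.79, SE 0.17, adjusted p = 0.00678). fbxo43, which overlaps osr2 on the other strand, was at 2.58 to 3.43 FPKM at 7 dpi, against 1.12 to 13.6 FPKM in uninjured kidneys. eya4, a coactivator and phosphatase that partners homeobox proteins in progenitors, was 1.21, 0.694 and 1.07 FPKM in uninjured kidneys, 0.242, 0.497 and 0.565 at 1 dpi, 0.43, 0.778 and 0.644 at 3 dpi, 1.32, 1.26 and 0.833 at 5 dpi and 1.22, 2.33 and 1.44 at 7 dpi. Its later samples all exceeded its earlier ones, and the difference was called (log2 difference 0.64, SE 0.13, adjusted p = 0.00444), whereas none of its comparisons with uninjured kidneys passed. eya4 and lhx1a share this order, with the uninjured samples of eya4 between 0.694 and 1.21 FPKM.

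Of the SALL, PAX and remaining LIM genes, sall1b and pax6b rose early. sall1b, a zinc finger repressor gene of the SALL1 family that acts in mouse cap mesenchyme, was 0.993, 0.42 and 0.446 FPKM in uninjured kidneys, 2.13, 2.31 and 4.73 at 1 dpi, 1.74, 3.21 and 2.25 at 3 dpi, 1.35, 1.64 and 1.83 at 5 dpi and 1.16, 0.861 and 0.843 at 7 dpi. No sample at 1, 3 or 5 dpi overlapped the uninjured ones, and the rise was called at 1 dpi (log2 difference 1.29, SE 0.30, adjusted p = 0.0306) and 3 dpi (log2 difference 1.06, SE 0.25, adjusted p = 0.0409). sall1b then fell between later and earlier groups (log2 difference -0.68, SE 0.18, adjusted p = 0.0151). Its paralog sall1a was 7.6, 7.24 and 20.4 FPKM at 1 dpi, against 5.86, 4.64 and 5.2 FPKM in uninjured kidneys (adjusted p = 0.164), and was called in none of the 5 comparisons of 2 sides. pax6b, known from eye and pancreatic islet, was 0.905, 0.385 and 0.736 FPKM at 1 dpi, against 0.0583, 0.0107 and 0.0228 FPKM in uninjured kidneys. In reads these were 88, 38 and 69 against 5, 1 and 2, and each later group had 1 to 4 reads per sample. The rise at 1 dpi was called (log2 difference 0.69, SE 0.14, adjusted p = 0.0186). lhx8b, whose mammalian counterpart acts in forebrain and oocytes, fell between later and earlier groups (log2 difference -0.62, SE 0.17, adjusted p = 0.0171), and it overlaps slc44a5b on the other strand. lhx8b averaged 5.17, 2.23, 1.73 and 2 FPKM at 1, 3, 5 and 7 dpi. slc44a5b was at 4.13 to 8.7 FPKM, 2.17 to 2.31 FPKM, 1.47 to 3.05 FPKM and 1.88 to 2.19 FPKM at these times. Reads of the overlap cannot be told apart, and the part of slc44a5b in the fall of lhx8b was not tested. lhx8a and sall4 were called in none of the 5 comparisons of 2 sides.

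**Figure D2:**
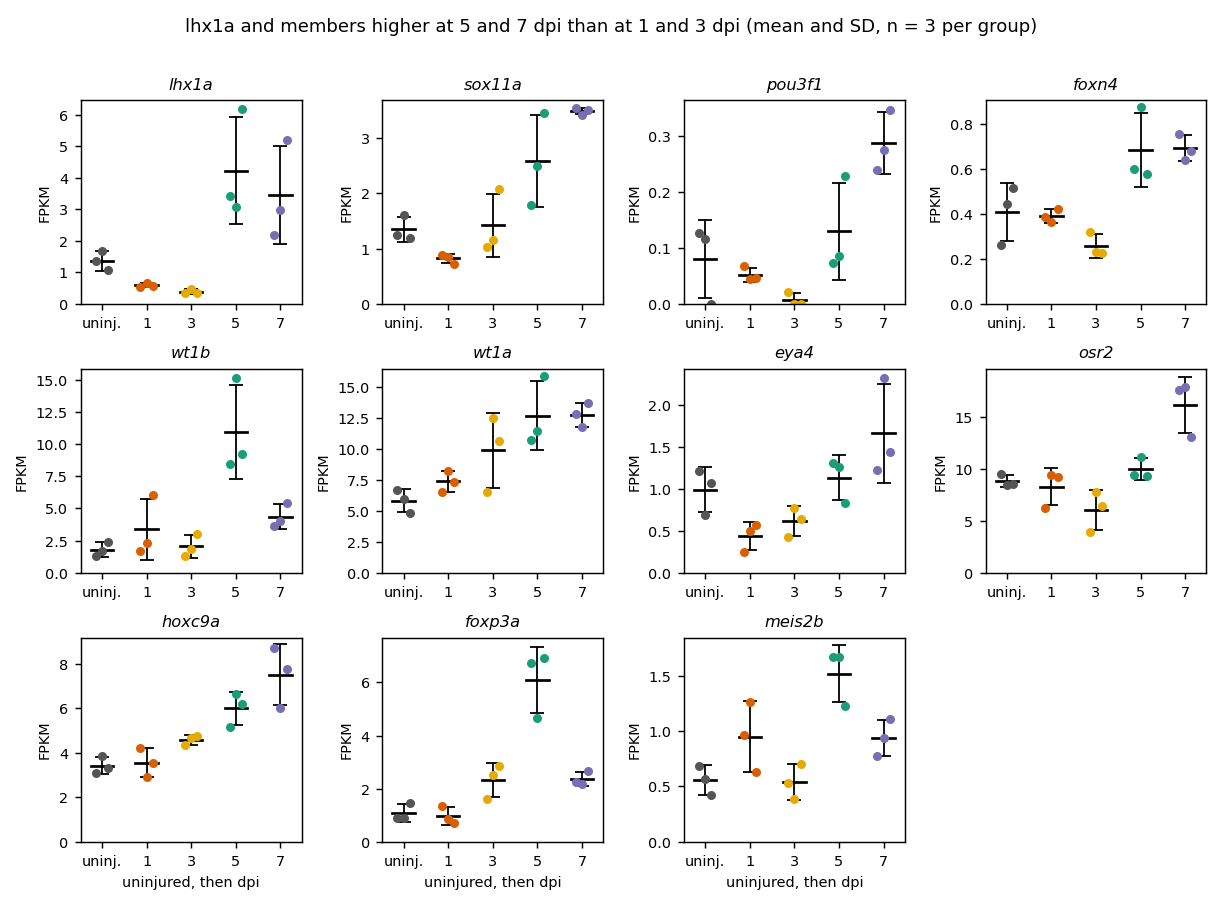
FPKM of lhx1a and 10 members that were higher at 5 and 7 dpi than at 1 and 3 dpi, by group, uninjured at the left and then 1, 3, 5 and 7 dpi. Points are samples, bars the mean and whiskers the SD (n = 3), and the later samples of lhx1a (2.19 to 6.17 FPKM) sit above its earlier ones (0.329 to 0.66 FPKM).

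Of the 15 HNF, IRX, POU, SIM1, nuclear receptor and related genes, many of which act in tubule segments, 6 fell at 7 dpi and 0 rose, beside 12.4% and 4.78% of all genes tested, whose median log2 difference was -0.22. hnf4a, a nuclear receptor of proximal tubule cells (ENSDARG00000021494, GRCz11 chromosome 23, 25906148 to 25939315, plus strand), was 20.5, 22 and 15.2 FPKM in uninjured kidneys, 7.03, 6.15 and 5.42 at 1 dpi, 11.8, 6.13 and 8.99 at 3 dpi, 11, 10.1 and 4.41 at 5 dpi and 6.86, 7.19 and 4.72 at 7 dpi. Every injured sample was below the lowest uninjured one. The fall was called at 1 dpi (log2 difference -1.48, SE 0.24, adjusted p = 0.00914) and 7 dpi (log2 difference -1.48, SE 0.23, adjusted p = 0.0200), and at 3 and 5 dpi the log2 differences were -1.04 and -1.16 (adjusted p = 0.0549 and 0.0943).

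The Iroquois homeobox genes irx3b and irx1a, which act in intermediate and distal tubule segments, were the most abundant of the tubule factors. irx3b was 46.5, 63.1 and 40.5 FPKM in uninjured kidneys, 37.6, 15.3 and 43.4 at 1 dpi, 20.6, 21.2 and 72.7 at 3 dpi, 39.4, 35.8 and 16.4 at 5 dpi and 16.2, 14.9 and 15.8 at 7 dpi.  At 3 dpi replicate 3 stood above the others, and all 7 dpi samples were below all uninjured ones (log2 difference -1.60, SE 0.20, adjusted p = 0.0163). irx1a was 20.2, 34.8 and 21.8 FPKM in uninjured kidneys, 18.7, 11.9 and 25 at 1 dpi, 16.5, 17.9 and 45.1 at 3 dpi, 19.8, 17.4 and 11.5 at 5 dpi and 9.99, 9.52 and 10.3 at 7 dpi. It had the same high sample at 3 dpi, and it fell at 7 dpi (log2 difference -1.24, SE 0.24, adjusted p = 0.0263). tfcp2l1, a factor of distal tubule and collecting duct in mouse, was 9.92, 24.6 and 20.1 FPKM in uninjured kidneys, 28.7, 14.8 and 22.4 at 1 dpi, 9.86, 4.26 and 10.6 at 3 dpi, 21.4, 8.28 and 3.87 at 5 dpi and 6.38, 4.96 and 5.39 at 7 dpi. Its 5 dpi samples reached both into and below the uninjured range, and it fell at 7 dpi (log2 difference -1.47, SE 0.34, adjusted p = 0.0385). sim1a, a basic helix-loop-helix gene of zebrafish tubule segments and the corpuscle of Stannius, was 0.749, 1.01 and 0.984 FPKM at 7 dpi, against 2.44, 2.42 and 1.91 FPKM in uninjured kidneys (log2 difference -0.76, SE 0.16, adjusted p = 0.0311). The calls of irx1a, tfcp2l1 and sim1a were lost under median-of-ratios scaling and under quantile normalization.

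The proximal tubule markers were lower after injury too: 4, 7, 3 and 8 of the 10 were called lower at 1, 3, 5 and 7 dpi, with 0 higher, and none was at 0 in all samples. Of all genes 6.9%, 6.91%, 1.46% and 12.4% were called lower at these times. Over the 15 samples, the mean of the proximal tubule markers had r = 0.713 with hnf4a, 0.733 with tfcp2l1, 0.532 with irx3b and 0.382 with irx1a, all from the same libraries. Outside the tubule families r varied widely, as in foxred1 (0.77), sox6 (0.701) and wt1a (-0.804). The part of the proximal tubule markers in the falls was not tested. irx7, an Iroquois gene of fish, rose at 1 dpi to 0.75, 1.05 and 0.944 FPKM, against 0.364, 0.167 and 0.237 FPKM in uninjured kidneys (log2 difference 0.61, SE 0.13, adjusted p = 0.0223). At 7 dpi it was 0.0524, 0.111 and 0.105 FPKM, below the uninjured samples without overlap (adjusted p = 0.139). In reads these were 1, 2 and 2 against 6, 3 and 4, so the 7 dpi values were below the floor of 3 reads. irx7 fell between later and earlier groups (log2 difference -0.41, SE 0.08, adjusted p = 0.00388). The nuclear receptor gene esrra, a regulator of mitochondrial genes, was 18.2, 18.5 and 21.1 FPKM at 5 dpi, against 9.28, 12.6 and 5.42 FPKM in uninjured kidneys, with no overlap but an adjusted p of 0.0812. pou3f1, a POU homeobox gene, was at 0.0735, 0.0852 and 0.228 FPKM at 5 dpi and 0.238, 0.275 and 0.347 FPKM at 7 dpi, against 0.0665, 0.0436 and 0.0459 FPKM at 1 dpi and 0.0215, 0 and 0 FPKM at 3 dpi, which is 3 to 16 reads per later sample and 0 to 3 per earlier one. The difference was called (log2 difference 0.23, SE 0.05, adjusted p = 0.00789). tfap2c, nkx3.2, rargb, grhl2a, irx4b and pou5f3 were called in none of the 5 comparisons of 2 sides.

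**Figure D3:**
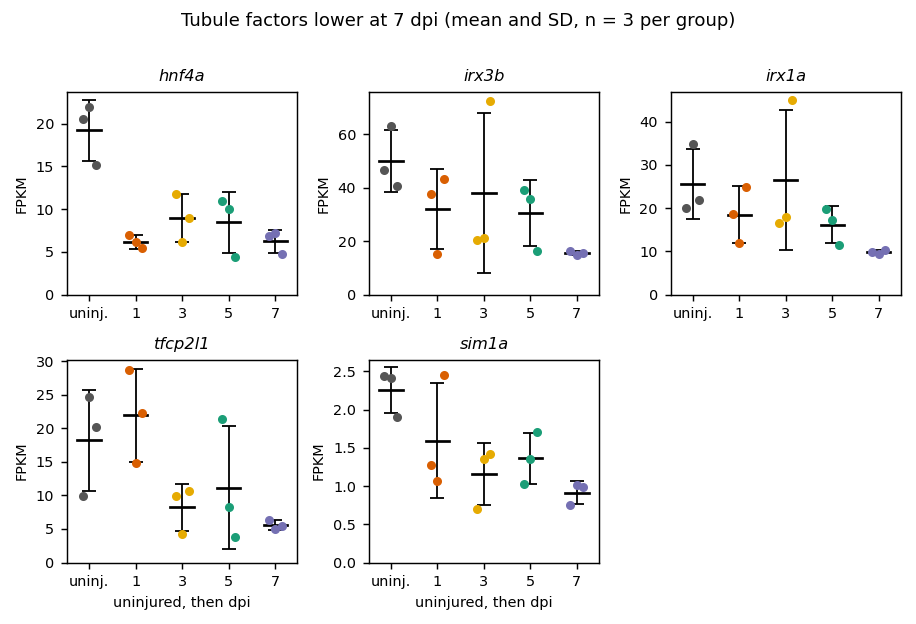
FPKM of 5 of the 6 tubule factors that were lower at 7 dpi than in uninjured kidneys, by group, uninjured at the left and then 1, 3, 5 and 7 dpi. Points are samples, bars the mean and whiskers the SD (n = 3), and the 7 dpi samples of irx3b (14.9 to 16.2 FPKM) lie below its uninjured samples (40.5 to 63.1 FPKM).

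The 3 listed HOX genes lie in the hoxc cluster and did not move alike. hoxc6a was 1.44, 1.13 and 1.53 FPKM in uninjured kidneys, 7.16, 5.75 and 7.65 at 1 dpi, 0.98, 0.923 and 0.956 at 3 dpi, 0.911, 1.55 and 1.54 at 5 dpi and 2.45, 1.78 and 1.94 at 7 dpi. Only the 1 dpi samples stood far above the rest (log2 difference 1.73, SE 0.24, adjusted p = 0.00551). hoxc3a was 12.8, 7.84 and 10.2 FPKM at 1 dpi, against 3.14, 2.55 and 1.82 FPKM in uninjured kidneys (log2 difference 1.68, SE 0.29, adjusted p = 0.0112). hoxc9a was 3.08, 3.85 and 3.31 FPKM in uninjured kidneys, 4.19, 2.89 and 3.55 at 1 dpi, 4.32, 4.66 and 4.74 at 3 dpi, 5.17, 6.63 and 6.16 at 5 dpi and 8.71, 6.00 and 7.76 at 7 dpi, and it was called at 7 dpi (log2 difference 0.94, SE 0.20, adjusted p = 0.0332) and between later and earlier groups (log2 difference 0.61, SE 0.14, adjusted p = 0.00682), which did not overlap. The hoxc3a gene model spans hoxc9a and hoxc6a on the same strand, so reads of hoxc3a and hoxc6a may share a source and their rises cannot be told apart. meis2b, a homeobox partner of HOX proteins, was 1.67, 1.67 and 1.23 FPKM at 5 dpi, against 0.684, 0.57 and 0.418 FPKM in uninjured kidneys (log2 difference 0.69, SE 0.15, adjusted p = 0.0449).

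Of the mesenchyme factors, zeb2b, a zinc finger repressor of epithelial genes, fell at 3 dpi and 7 dpi. It was 1.48, 1.28 and 1.51 FPKM in uninjured kidneys, 0.588, 1.02 and 0.834 at 1 dpi, 0.532, 0.656 and 0.624 at 3 dpi, 0.847, 1.03 and 1.44 at 5 dpi and 0.487, 0.488 and 0.549 at 7 dpi. The 7 dpi samples were below the uninjured ones without overlap (log2 difference -0.68, SE 0.11, adjusted p = 0.0219; at 3 dpi adjusted p = 0.0458). tcf21, a basic helix-loop-helix gene of mouse podocytes and kidney stroma, was 16.4, 8.34 and 11.6 FPKM at 7 dpi, against 7.32, 4.42 and 2.91 FPKM in uninjured kidneys, with no overlap and an adjusted p of 0.0715. tbx16, a mesoderm gene of the zebrafish embryo, rose at 1 dpi to 0.373, 0.417 and 0.519 FPKM, against 0.0728, 0.0401 and 0.0284 FPKM in uninjured kidneys (log2 difference 0.46, SE 0.09, adjusted p = 0.0163). In reads these were 29, 33 and 39 against 5, 3 and 2. tbx19 and gata6 were called in none of the 5 comparisons of 2 sides.

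Among the called rises of members, the largest log2 difference of FPKM + 1 was that of sox9a (ENSDARG00000003293, GRCz11 chromosome 12, 1927596 to 1931236, minus strand), the gene of a high-mobility-group factor of cartilage that is expressed in injured mouse tubules. sox9a was 2.89, 1.69 and 3.37 FPKM in uninjured kidneys, 36.5, 32.3 and 122 at 1 dpi, 4.21, 7.08 and 9.7 at 3 dpi, 5.16, 6.73 and 7.47 at 5 dpi and 2.38, 2.45 and 3.25 at 7 dpi. The 1 dpi samples were above every other sample, and replicate 3 was the highest by far. Mean FPKM at 1 dpi was 24.1 times that of uninjured kidneys (log2 difference 3.91, SE 0.53, adjusted p = 0.00511), and the difference was kept under all 11 alternatives, with log2 differences of 3.30 to 4.25 when 1 sample was left out. At 3 and 5 dpi every sample still lay above the uninjured range, with adjusted p = 0.0809 and 0.0653. The paralog sox9b was 0.344, 0.428 and 0.338 FPKM at 1 dpi, against 0.862, 0.0754 and 0.481 FPKM in uninjured kidneys (adjusted p = 0.81), and was called only between later and earlier groups, where it fell (log2 difference -0.27, adjusted p = 0.0188). sox6 was 0.421, 0.615 and 0.594 FPKM at 3 dpi, against 1.1, 2.64 and 1.43 FPKM in uninjured kidneys, without overlap (adjusted p = 0.0758). sox11a, a SOX gene active in progenitors of the mouse kidney, was 1.25, 1.61 and 1.2 FPKM in uninjured kidneys, 0.887, 0.854 and 0.72 at 1 dpi, 1.03, 1.16 and 2.07 at 3 dpi, 1.79, 2.5 and 3.46 at 5 dpi and 3.54, 3.42 and 3.51 at 7 dpi. The 7 dpi samples were all above every uninjured, 1 dpi and 3 dpi sample, and the rise was called at 7 dpi (log2 difference 0.94, SE 0.17, adjusted p = 0.0236) and between later and earlier groups (log2 difference 0.94, SE 0.15, adjusted p = 0.00133).

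The ID genes, encoding inhibitors without a DNA-binding domain, rose together at 1 dpi. id3, the most abundant member, was 67.6, 48.9 and 57.8 FPKM in uninjured kidneys, 321, 215 and 227 at 1 dpi, 78, 73.6 and 67.9 at 3 dpi, 71.1, 66.5 and 94.6 at 5 dpi and 103, 89.7 and 89.4 at 7 dpi. Its 1 dpi samples were the highest of all, it fell between later and earlier groups (log2 difference -0.67, SE 0.14, adjusted p = 0.00505; under quantile normalization -0.11, adjusted p = 0.661), and it was called again at 7 dpi (log2 difference 0.69, SE 0.18, adjusted p = 0.0476). Mean FPKM at 1 dpi was 4.38 times that of uninjured kidneys (SE of the log2 difference 0.24, adjusted p = 0.00265). id1 was 18.5, 9.21 and 6.62 FPKM at 1 dpi, against 2.22, 2.63 and 1.82 FPKM in uninjured kidneys (log2 difference 1.84, SE 0.39, adjusted p = 0.0216).

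**Figure D4:**
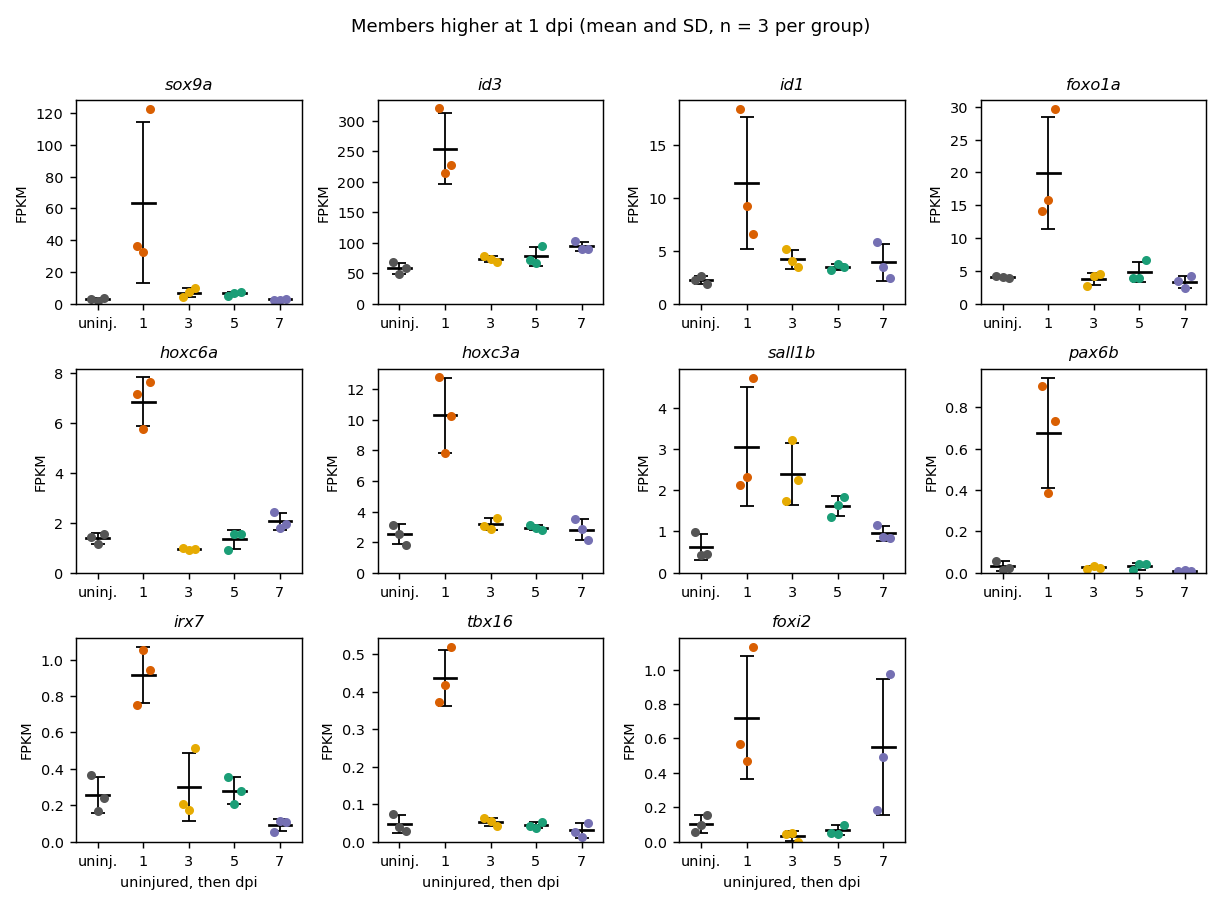
FPKM of 11 members that rose at 1 dpi, by group, uninjured at the left and then 1, 3, 5 and 7 dpi. Points are samples, bars the mean and whiskers the SD (n = 3), and the 1 dpi samples of sox9a (32.3 to 122 FPKM) stand above its uninjured samples (1.69 to 3.37 FPKM).

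Of the 14 FOX genes, 2 rose at 1 dpi, a share near the 12.9% of all genes called higher. foxo1a, the gene of a factor held out of the nucleus by insulin signalling, was 4.19, 4.03 and 3.94 FPKM in uninjured kidneys, 14.2, 15.9 and 29.7 at 1 dpi, 2.76, 4.18 and 4.49 at 3 dpi, 3.97, 3.98 and 6.66 at 5 dpi and 3.44, 2.42 and 4.21 at 7 dpi. Only the 1 dpi samples left the uninjured range by far (log2 difference 1.98, SE 0.32, adjusted p = 0.00914). foxi2 was 0.569, 0.466 and 1.13 FPKM at 1 dpi, against 0.0537, 0.0987 and 0.157 FPKM in uninjured kidneys (log2 difference 0.62, SE 0.16, adjusted p = 0.0401). In reads these were 12, 10 and 23 against 1, 2 and 3, and the call held in 1 of the 6 fits that left out 1 sample. At 7 dpi foxi2 was 0.185, 0.489 and 0.973 FPKM, again above the uninjured samples without overlap (adjusted p = 0.1385).

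foxp3a, a zebrafish counterpart of the regulatory T cell gene FOXP3, was 0.889, 0.891 and 1.46 FPKM in uninjured kidneys, 1.35, 0.842 and 0.702 at 1 dpi, 1.59, 2.52 and 2.84 at 3 dpi, 6.74, 4.66 and 6.91 at 5 dpi and 2.26, 2.17 and 2.65 at 7 dpi. Its 5 dpi samples exceeded all others, and it rose at 5 dpi (log2 difference 1.77, SE 0.23, adjusted p = 0.0203), at 7 dpi (log2 difference 0.70, SE 0.18, adjusted p = 0.0472) and between later and earlier groups (log2 difference 0.94, SE 0.16, adjusted p = 0.00153). Of 10 lymphoid markers 3 were listed (cd4-1, il7r and rag1), none at 0 in all samples, and their sum was 9.95 to 18.04 FPKM in uninjured kidneys. It was between 13.4 and 15.5 FPKM at 1 dpi, 16.2 and 20.1 FPKM at 3 dpi, 21.6 and 28.5 FPKM at 5 dpi, and 21.9 and 26.5 FPKM at 7 dpi. At 5 dpi 3 of the 3 lay above the uninjured samples without overlap, as did 21.5% of all genes. At 7 dpi 2 lay above and 1 below without overlap, beside 15.1% and 27.4% of all genes. Against uninjured kidneys 0 were called at any time. Between later and earlier groups 2 were called higher, as were 15.5% of all genes. The part of these markers in the rise of foxp3a was not tested. foxp3b rose between later and earlier groups (log2 difference 0.34, SE 0.11, adjusted p = 0.0386), which was kept in 3 of the 12 fits that left out 1 sample. foxn4, a gene of retina and heart development, was 0.599, 0.874 and 0.579 FPKM at 5 dpi and 0.757, 0.64 and 0.681 FPKM at 7 dpi, against 0.387, 0.362 and 0.421 FPKM at 1 dpi and 0.319, 0.228 and 0.226 FPKM at 3 dpi. These ranges did not overlap (log2 difference 0.35, SE 0.07, adjusted p = 0.00411). foxo1b, foxo3a, foxp1a and the 4 FOX genes described with the ovary markers were called in none of the 5 comparisons of 2 sides.

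Both oxidoreductase genes were called at 1 dpi. foxred2, of a protein of the endoplasmic reticulum, was 30.2, 32.2 and 25.2 FPKM at 1 dpi, against 3.38, 2.75 and 2.63 FPKM in uninjured kidneys (log2 difference 2.94, SE 0.22, adjusted p = 0.000622). foxred1, of a mitochondrial complex I assembly protein, was 16.2, 13 and 12.8 FPKM in uninjured kidneys and between 3.76 and 6.7 FPKM in the 12 injured ones, called lower at all 4 times (log2 differences -1.52, -1.49, -1.19 and -1.48 at 1, 3, 5 and 7 dpi). It overlaps cry5 on the other strand.

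The members most like lhx1a over the 15 samples, by Pearson's r of log2(FPKM + 1), were sox11a (0.808), pou3f1 (0.801), foxn4 (0.775), foxp3b (0.7), wt1b (0.683), eya4 (0.67), hoxc9a (0.661), foxp3a (0.648), osr2 (0.631) and meis2b (0.618). The points share libraries and scale, and r is a description. Since lhx1a itself was higher at 5 and 7 dpi than at 1 and 3 dpi, this choice favours members with the same difference. Over the 5 group means foxn4 came closest (r = 0.965). By Spearman's rho 9 of the 10 stayed among the closest, and 8 to 10 did when 1 sample was left out. Among the most unlike were lhx8b (-0.537), irx1a (-0.526), irx7 (-0.505) and hoxc3a (-0.477). Among all genes, sox11a ranked 29 and pou3f1 38 of 5684 by r with lhx1a, and the closest was hey1 (0.918), a Notch target. Of the pairs of later and earlier groups, 5 members did not overlap and were higher later (lhx1a, eya4, foxn4, hoxc9a and pou3f1), against 2.27% of all genes, and 0 were lower, against 3.73%. The contrast was chosen with lhx1a as its reference, so its place among the 5 adds nothing. pou3f1 rests on 0 to 16 reads per sample. Its 5 dpi replicate 1 and 1 dpi replicate 1 each had 3 reads, so in reads its groups met.

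Other genes of nephron formation, 16 of 50 in a list that holds no member, were in the table. Against uninjured kidneys 1 (frzb, a secreted Wnt inhibitor) was lower at 1 dpi, 0 were called at 3 dpi, 1 (sfrp1a, of the same family) was higher at 5 dpi and 6 were higher at 7 dpi, where 4.78% of all genes were. At 5 and 7 dpi against 1 and 3 dpi 9 were higher and 0 lower, beside 15.5% and 20.2% of all genes tested, with a median log2 difference of 0.64 over the 16 and 0.01 over all genes. The 9 were cdh6, fgf8a, frzb, fzd9b, hey1, mycn, ncam1a, sfrp1a and wnt4a. The list and this contrast were chosen with earlier results of these data known, so the count describes these data. frzb averaged 6.32 FPKM later and 2.05 FPKM earlier, both below its mean of 11.7 FPKM in uninjured kidneys. The other 7 (axin2, cited1, gpc3, jag1a, lef1, ret and wnt11) were called in none of the 5 comparisons of 2 sides. wnt4a, the ligand of the mesenchyme to epithelium transition, averaged 1.32 FPKM later and 0.326 FPKM earlier (log2 difference 0.80, SE 0.09, adjusted p = 9.62e-05). fgf8a, a growth factor of progenitor survival, averaged 1.1 FPKM later and 0.128 FPKM earlier (log2 difference 0.88, adjusted p = 0.000428).

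A set of 12 members followed the ovary markers (r of at least 0.75 with their mean over 15 samples, 0.777 to 0.989): sox19b, lhx8a, foxa, irx4b, foxh1, sox21a, sall4, pou5f3, grhl2a, foxq1b, foxp2 and sox8b. sox19b, sall4, pou5f3 and foxh1 have roles in the early embryo or germ line, and lhx8a in oocytes. sox19b was 15.1, 0.0259 and 16.9 FPKM in uninjured kidneys, 0.323, 5.45 and 0.18 at 1 dpi, 0.0962, 0.186 and 0.237 at 3 dpi, 9.19, 0.143 and 0.0256 at 5 dpi and 2.62, 1.18 and 2.4 at 7 dpi. It was high in the 4 libraries that were also high in ovary markers. The next member by this correlation was foxo3a (0.46). None of the 12 was called in any comparison (F-test adjusted p between 0.111 and 0.355). The 12 were picked by likeness to a mean that differs widely within groups, so the choice itself favours genes that are not called. The other 48 members hold all the calls, and the part of the ovary signal in the values of the 12 was not tested. In a fit on all 15 samples with the ovary mean as a covariate 20, 6, 11 and 20 members were called at 1, 3, 5 and 7 dpi and 29 between later and earlier groups, beside 36%, 13%, 15.4%, 30.3% and 35.5% of all genes. With the 11 samples whose ovary mean was below 4, which leaves 1 uninjured sample, the counts were 16, 3, 2, 8 and 30, beside 17.8%, 5.98%, 3.8%, 10.7% and 38.4% of all genes, a choice made after seeing the data.

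**Figure D5:**
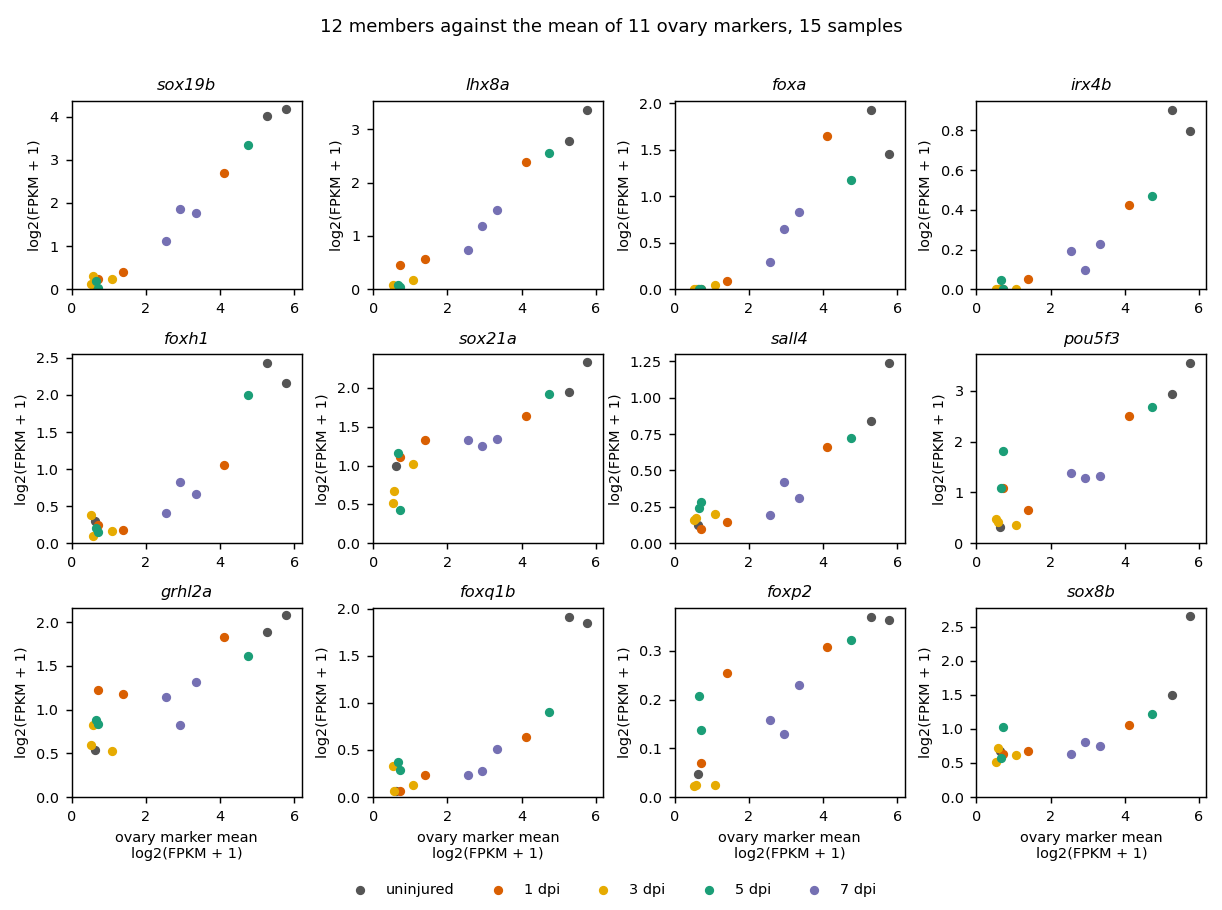
Each panel sets the log2(FPKM + 1) of a member (vertical axis) against the mean log2(FPKM + 1) of the 11 listed ovary markers (horizontal axis), and points are the 15 samples coloured by group. The 12 members increase along the ovary mean, sox19b most closely (r = 0.989), and the uninjured samples lie at both ends of the axis (0.62, 5.28 and 5.77).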

How the data were processed

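RNA of 15 zebrafish kidney samples was sequenced, 3 samples in each of 5 groups, and the groups and replicate numbers came from the sample titles. The authors deposited FPKM for 5686 genes. Per the submitters' processing notes and the methods, polyA RNA was made into libraries with a kit that does not mark strand, the genome build was GRCz11, the aligner is not given in the sources used here, StringTie 1.3.3b and featureCounts 1.5.0-p3 were used for assembly and counts, and DESeq2 called genes. FPKM divides by gene length and library size, so a change in abundant transcripts moves all other values. The table also holds a group code per gene, which was not used. Values of 0 columns belong to samples of other series.

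Whole reads were recovered for 99.93% of the genes, from the steps between low FPKM values, with 13876000 to 16368000 reads per sample, and counts below 3 reads were taken as the floor. limma 3.58.1 in R 4.3.3 (lmFit, eBayes with a trend) was fitted to log2(FPKM + 1) where a gene exceeded 0 FPKM in 3 or more of the 15 samples, two-sided, with Benjamini-Hochberg adjustment over all genes tested and a threshold of 0.05. A fold on this scale understates changes of low genes. Each time was compared with uninjured kidneys on 6 samples, later with earlier groups on 12 samples, and the 5 groups in an F-test on 15. The fits of 5 dpi with uninjured, of later with earlier groups and of the 5 groups were also run on simulated counts. These counts held no shared difference between libraries beyond depth. They cannot show how the fits behave with one such as the ovary signal. The alternatives were another pseudocount (0.1), no filter, only genes with a mean of 1 FPKM or more, scaling by median of ratios, normalization by quantiles, no trend, the replicate number as a block, voom on the recovered reads, fits on all 15 samples with and without an ovary covariate, and leaving out each sample. The values of 3 members, which all counts include, are not reported here. Members, lists and the later-against-earlier contrast were chosen with earlier results of these data known. The genes named were lhx1a, up to 10 members with the largest rise and 10 with the largest fall among those called in each comparison, the 10 most like and 5 most unlike lhx1a, the 10 with the highest mean FPKM and members described by family.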

Additional observations from a re-analysis of the deposited data

Results flagged for a closer look

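lhx1a moved in opposite directions in the earlier and later injured groups. All 6 samples at 1 and 3 dpi were below the 3 uninjured samples and all 6 at 5 and 7 dpi were above them. The difference between the later and earlier groups, tested directly with limma, was 1.65 on the log2 scale (SE 0.19, adjusted p = 0.00013). That contrast was chosen with earlier results of these data known, and it does not compare lhx1a with uninjured kidneys. Against uninjured kidneys the limma adjusted p was 0.0556, 0.0298, 0.0646 and 0.0848 at 1, 3, 5 and 7 dpi. In these fits only the fall at 3 dpi passed, and it was kept in 1 of the 6 fits that left out 1 sample. In limma fits on all 15 samples the rises of lhx1a at 5 and 7 dpi passed, with and without the ovary covariate. The fall at 3 dpi passed there only without that covariate.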

How the results depend on the processing

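Counts of members called were compared across up to 11 alternative settings, and no log2 difference of lhx1a or of a called member changed sign. The replicate number as a block left 3 members called at 1 dpi and 0 at 3, 5 and 7 dpi, where the counts without it were 14, 4, 6 and 15. Of all genes it left 5.52% called at 1 dpi and 0% at 3, 5 and 7 dpi. With the block, 26 members were called between later and earlier groups and 44 among the 5 groups, beside 34.9% and 61.9% of all genes. The deviations of same-numbered samples correlated in both directions (r between -0.781 and 0.767), and in none of the 10 pairs of groups were all 3 correlations above 0.1. Uninjured and 5 dpi had the highest mean correlation (0.309), from 0.514, 0.767 and -0.353. For 1 and 3 dpi the values were 0.001, 0.23 and 0.204. The main fits took the samples to share only a number, which 3 correlations per pair of groups are too few to establish. A fit on all 15 samples called 8 members at 3 dpi and 12 at 5 dpi, beside 26.3% and 18.7% of all genes. Adding the ovary mean as a covariate gave 11 at 5 dpi, beside 15.4% of all genes. Quantile normalization gave 7 at 3 dpi, beside 15.9% of all genes. Among the calls it ended were those of foxi2 and tbx16 at 1 dpi, lhx1a and zeb2b at 3 dpi, meis2b and wt1a at 5 dpi, wt1b and zeb2b at 7 dpi, and foxn4, foxp3b, id1, id3 and meis2b between later and earlier groups. Requiring a mean of at least 1 FPKM kept 36 members. Of these 18 were called between later and earlier groups and 27 among the 5 groups, beside 37.8% and 70.2% of all genes so kept. The 11 samples with an ovary mean below 4 gave 2 at 5 dpi and 8 at 7 dpi, a choice made after seeing the data. Leaving out 1 sample gave 8 to 17 members at 1 dpi, 0 to 18 at 3 dpi, 0 to 2 at 5 dpi, 0 to 26 at 7 dpi, 22 to 29 between later and earlier groups and 38 to 50 among the 5 groups. Among the 5 groups 55.6% to 72.6% of all genes were then called. Where 1 uninjured sample was left, its spread was taken from the other groups in the fit. limma voom on the recovered reads called 12, 5, 4 and 13 members (1065, 628, 381 and 946 genes of 5681) at 1, 3, 5 and 7 dpi and 25 members (1970 genes) between later and earlier groups. Members below 1 FPKM rest on few reads, and their log2 differences depend on the pseudocount. The cause of these shifts was not tested.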

Other observations

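Over all 5684 genes with which lhx1a could be correlated, the 10 most like it over the 15 samples included none of the members. After hey1 (r = 0.918) and CR388132.1 (0.909) came bmper (0.902), which encodes a secreted regulator of bone morphogenetic proteins. fzd9b (0.899) encodes a Wnt receptor, and vcana (0.898) and col11a1b (0.873) encode extracellular matrix proteins. The others were uncx4.1 (0.884), a homeobox gene, kif26ab (0.874), shisa7b (0.87) and bcl6b (0.85). These values come from the same libraries and describe likeness alone.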
